A study of Mus musculus with 12 samples.

Results

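The ERBB receptors are Erbb2, Erbb3, Erbb4 and Egfr, the 4 genes of the epidermal growth factor receptor family. They were chosen by name, and all 4 are among the 16411 genes of the deposited count table and the 13191 genes that passed the expression filter. RNA was sequenced from 6 mammary tumors (tumor) and 6 samples of mammary tissue without a visible tumor (benign) of female MMTV-Neu-NDL-YD5 transgenic mice. The mice were heterozygous on an FVB background and received no treatment, and the age of each mouse is not given in the sources used here. Benign tissue was taken from tumor-bearing mice, far from the tumor, so both groups carried the transgene, and tumors and benign samples came from different mice. The transgene is an activated form of neu (HER2) that keeps a single group of tyrosine docking sites, which couples it to SHC and GRB2. The mouse mammary tumor virus promoter drives it mainly in mammary epithelium, so the model reports on tumors started by this 1 form of the receptor.

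The ERBB receptors are cell surface tyrosine kinases that signal as pairs. EGFR binds ligands such as EGF, TGF-alpha and amphiregulin, ERBB3 and ERBB4 bind neuregulins, and ERBB2 has no known ligand and acts as the preferred partner of the others. ERBB3 has little kinase activity of its own and couples its partner, most often ERBB2, to PI3K, while ERBB4 is known in the mammary gland for its role in alveolar differentiation and lactation.

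Total counts ranged from 5240853 to 8588567 per sample. The tissue labels were checked against marker genes. Of 13 luminal epithelial markers, 10 were higher in tumors, 1 (Krt19) was lower and 2 did not pass the test. Over all genes tested, 28.2% were higher and 34.8% lower. All 7 adipocyte markers, all 7 basal markers, all 6 fibroblast markers and all 4 endothelial markers were lower in tumors, with a summed adipocyte marker level of 8481 to 18621 CPM in benign tissue and 11.6 to 105 CPM in tumors. The summed basal level ranged from 700 to 1556 CPM and from 31.9 to 111 CPM, the fibroblast level from 2903 to 7082 CPM and from 339 to 728 CPM, and the endothelial level from 498 to 936 CPM and from 71.8 to 90.6 CPM. Each marker of these 4 lists had counts in at least 1 tumor. The share of these tissues in the receptor differences was not tested beyond the epithelial references given further on. Skeletal muscle markers summed to between 18.3 and 95182 CPM in benign tissue and were high in benign samples 3, 4 and 6. T cell markers reached 403 CPM in benign sample 1. CPM are counts divided by library size, with library sizes adjusted between samples by TMM.

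Erbb2 and Egfr lie on chromosome 11 of the mouse genome (GRCm38), Erbb2 at chr11:98412470-98437716 on the plus strand with 27 exons and Egfr at chr11:16752203-16918158 on the plus strand with 28 exons. Erbb3 lies at chr10:128567523-128589652 on the minus strand with 28 exons. Erbb4 lies at chr1:68032186-69108059 on the minus strand with 28 exons and spans 1076 kb. The principal transcripts are 5012 bases long for Erbb2, 6016 for Erbb3, 11782 for Erbb4 and 10208 for Egfr, so a count of Erbb4 or Egfr stands for a longer transcript, and levels are compared between receptors only per kb. The bases just before the transcription start (RefSeq, GRCm38.p6) are shown as a description. The Erbb2 level may include transgene RNA, which the viral promoter drives, and the part of the mouse Erbb2 promoter in it was not tested. Of the motifs searched, only AP-2 has a factor described at the end. Capitals mark matches to a PEA3 motif (GAGGAA) or a GC box (GGGCGG), searched on both strands together with the AP-2 motif (GCCNNNGGC). They are Erbb2 at chr11:98412234-98412483 on the plus strand, Egfr at chr11:16751953-16752202 on the plus strand and Erbb4 at chr1:69108060-69108309 on the minus strand.
Erbb2: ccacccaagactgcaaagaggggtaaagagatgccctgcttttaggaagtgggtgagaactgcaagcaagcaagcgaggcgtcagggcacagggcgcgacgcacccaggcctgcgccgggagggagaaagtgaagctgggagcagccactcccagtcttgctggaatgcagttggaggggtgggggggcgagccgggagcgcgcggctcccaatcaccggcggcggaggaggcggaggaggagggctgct
Egfr: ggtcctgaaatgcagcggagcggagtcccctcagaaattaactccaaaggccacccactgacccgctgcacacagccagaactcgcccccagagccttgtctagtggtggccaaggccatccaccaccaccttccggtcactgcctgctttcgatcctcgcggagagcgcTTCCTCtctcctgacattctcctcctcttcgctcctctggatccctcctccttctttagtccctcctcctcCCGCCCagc
Erbb4: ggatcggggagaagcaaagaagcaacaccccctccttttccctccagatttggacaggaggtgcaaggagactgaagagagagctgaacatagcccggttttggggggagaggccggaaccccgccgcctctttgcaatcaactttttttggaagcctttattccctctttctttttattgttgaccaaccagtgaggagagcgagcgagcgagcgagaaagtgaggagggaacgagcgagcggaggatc
Egfr held a PEA3 match on the minus strand that began 80 bases before the start and a GC box match on the minus strand that began 9 bases before it. The Erbb2 and Erbb4 windows held no match to these letters, and other sequences that the same factors may bind were not searched. Among 32851 RefSeq promoter windows of the same length, 13.7% held the AP-2 motif, 23.3% the PEA3 motif and 32.7% the GC box.

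To determine how the receptors differed between tumors and benign tissue, each was tested in a fit across all genes. All 4 receptors were higher in tumors, and in all 4 every tumor lay above every benign sample. Of all genes tested, 28.2% were called higher, 34.8% lower and 63.0% in either direction, and 14.7% had every tumor above every benign sample. Fewer cells of a type and less RNA per cell cannot be told apart in bulk tissue, here or in the results that follow.

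Erbb2, the gene of HER2, had 44.8, 65.7, 55.1, 55.4, 73.7 and 45.8 CPM in benign samples 1 to 6. It had 8790, 4037, 16634, 1989, 6808 and 6207 CPM in tumors 1 to 6. The lowest tumor, sample 4, lay far above the highest benign sample, and the tumors spread over an 8.36-fold range where the benign samples spread over a 1.64-fold range. The mean rose from 56.8 ± 11.2 to 7411 ± 5090 CPM (SD, n = 6 per group), and the log2 fold change was 7.03 (SE 0.51, 95% interval 5.92 to 8.14, edgeR adjusted p = 1.62e-07). Erbb2 took between 0.203% and 1.64% of all counts in a tumor library. By mean CPM it ranked 5 among the genes tested in tumors and 4396 in benign tissue, and its log2 fold change ranked 17 of 13191. The neu transgene derives from a rat cDNA and the table has a single Erbb2 entry, so its level may hold both transgenic and endogenous RNA, and how transgene reads were assigned to this entry is not given in the sources used here.

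Erbb3, the kinase-poor partner of ERBB2, ranged from 44.6 to 120 CPM in benign tissue (median 54.4) and from 252 to 416 CPM in tumors (median 351). The groups did not overlap, although benign sample 5 with 120 CPM and benign sample 2 with 80.8 CPM lay above the other benign samples. The mean rose from 66.7 ± 29.7 to 343 ± 69.1 CPM (SD, n = 6 per group), a log2 fold change of 2.36 (SE 0.26, edgeR adjusted p = 7.09e-06). Of the 4 receptors, Erbb3 varied least among the tumors, with a coefficient of variation of 20.1%, compared to 68.7% for Erbb2, 33.6% for Erbb4 and 30.7% for Egfr. In benign tissue the coefficients were 19.8% for Erbb2, 44.6% for Erbb3, 44.8% for Erbb4 and 17.1% for Egfr. These are descriptions of 6 samples per group, and the spreads were not tested against each other.

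Erbb4, the receptor of alveolar differentiation, was the lowest of the 4 in benign tissue. It had 7, 27, 17, 11, 20 and 4 counts in benign samples 1 to 6, or 0.710 to 3.22 CPM (median 2.10). In tumors it ranged from 18.1 to 52.1 CPM (median 33.1), with 150 to 335 counts, and the groups did not overlap. The mean rose from 1.99 ± 0.89 to 33.8 ± 11.4 CPM (SD, n = 6 per group), a log2 fold change of 4.04 (SE 0.34, 95% interval 3.31 to 4.78, edgeR adjusted p = 5.52e-07). Tumor 1 was highest and tumor 3 lowest, which is the tumor with the highest Erbb2.

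Egfr, the receptor of EGF and TGF-alpha, had the smallest fold change of the 4. It ranged from 46.7 to 79.9 CPM in benign tissue (median 73.9) and from 89.6 to 210 CPM in tumors (median 139). The lowest tumor, sample 5, lay close to the highest benign sample, but the groups did not overlap. The mean rose from 69.8 ± 12 to 143 ± 43.9 CPM (SD, n = 6 per group), a log2 fold change of 1.03 (SE 0.20, 95% interval 0.60 to 1.47, edgeR adjusted p = 0.00076). The 95% interval of Egfr ended below that of Erbb3, which ran from 1.79 to 2.93.

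**Figure D1:**
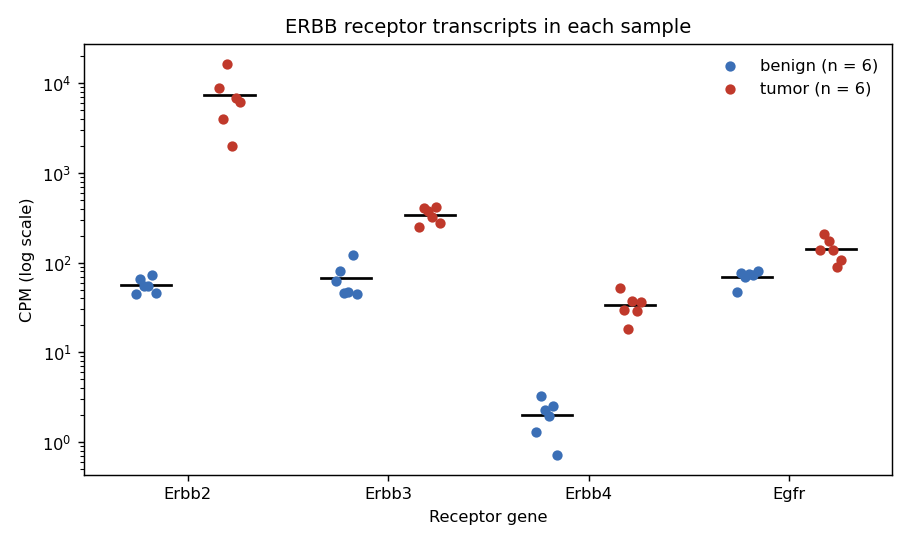
CPM of each ERBB receptor on a log scale, with 1 point per sample for 6 benign samples and 6 tumors and a line at each group mean. Every tumor lies above every benign sample for each receptor, with the widest gap for Erbb2, from 73.7 CPM in the highest benign sample to 1989 CPM in the lowest tumor.

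The levels of the receptors were then put on a common scale by dividing CPM by the length of the principal transcript. In tumors the order was Erbb2, Erbb3, Egfr and Erbb4 in 6 of 6 samples, with levels of 1479 ± 1016, 57.0 ± 11.5, 14 ± 4.30 and 2.87 ± 0.96 CPM per kb (SD, n = 6). Erbb2 made up 93.1 ± 4.89% of the sum of the 4 receptors in tumors, between 84.8% and 97.6%, and Erbb3 made up 5.28 ± 3.71%. These values use the length of the mouse Erbb2 transcript. The length of the transgene RNA, which the Erbb2 level may include, is not given in the sources used here. In benign tissue Erbb2 and Erbb3 stood side by side, with 11.3 ± 2.24 and 11.1 ± 4.94 CPM per kb, and Egfr followed with 6.84 ± 1.17. Erbb2 was the highest receptor in 3 benign samples and Erbb3 in the other 3, and these neighbors in the order did not differ beyond their spread. Their shares of the sum were 38.9 ± 3.11% and 36.6 ± 7.74%, with 24.0 ± 5.66% for Egfr and 0.565 ± 0.204% for Erbb4. Erbb4 was the lowest receptor in all 12 samples. The benign order depended on the length used. By coding length, Egfr was highest in 4 benign samples and Erbb3 in 2, while the tumor order was the same in 6 of 6.

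Ratios between receptors within a sample do not depend on the scaling of the library beyond the 2 added counts. Ratios are given as log2 of CPM over CPM, so their change between groups can be read but not which receptor of a pair is more abundant. Each of the 6 ratios was tested by an exact two-sided permutation test over 924 regroupings, whose smallest possible p is 0.00216, with adjustment over the 6 pairs. Erbb2 over Erbb3 was -0.15 ± 0.40 in benign tissue and 4.17 ± 1.09 in tumors (SD, n = 6 per group), a difference of 4.32 (SE 0.47). Erbb2 over Egfr was -0.30 ± 0.29 and 5.46 ± 1.13, a difference of 5.76 (SE 0.48), and Erbb2 over Erbb4 was 4.74 ± 0.45 and 7.55 ± 1.33, a difference of 2.80 (SE 0.57). In each of these ratios the tumors did not overlap the benign samples (exact permutation p = 0.00216, adjusted p = 0.0026), so Erbb2 rose relative to each of its partners.

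The remaining receptors also shifted relative to each other. Erbb3 over Egfr rose from -0.15 ± 0.64 to 1.29 ± 0.49, a difference of 1.44 (SE 0.33), and Erbb4 over Egfr rose from -5.04 ± 0.67 to -2.09 ± 0.76, a difference of 2.96 (SE 0.41), each with no overlap (exact permutation p = 0.00216, adjusted p = 0.0026, n = 6 per group). Erbb3 over Erbb4 was the only 1 of the 6 ratios to fall, from 4.90 ± 0.58 to 3.38 ± 0.75, a difference of -1.52 (SE 0.39, exact permutation p = 0.00433, adjusted p = 0.00433, n = 6 per group), and 5 of 6 tumors lay below every benign sample. The low counts of Erbb4 in benign tissue limit the precision of the ratios that contain it.

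**Figure D2:**
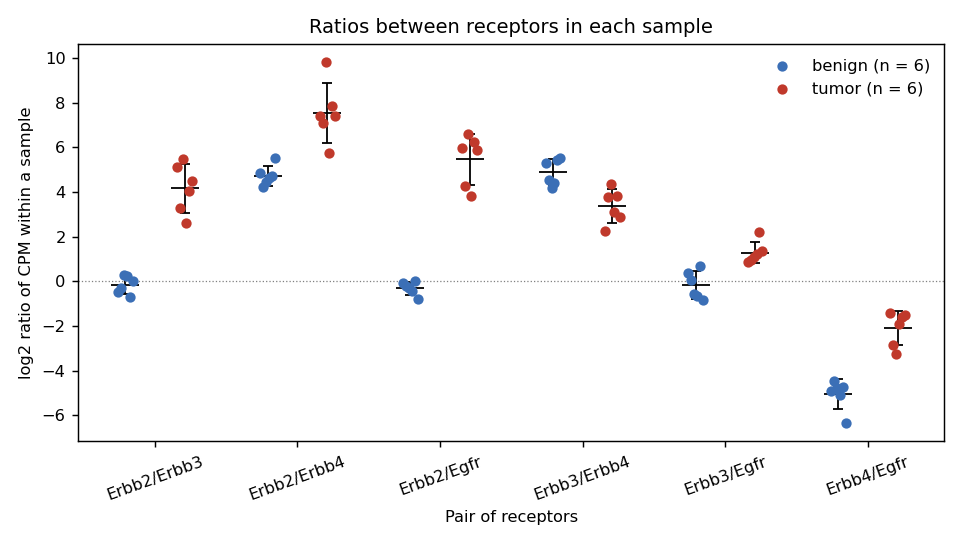
Log2 ratio of CPM within each sample for the 6 pairs of receptors, with 1 point per sample and the mean ± SD of each group of 6. Of the 6 pairs, 5 are higher in tumors with no overlap, and Erbb3 over Erbb4 is lower, at 3.38 compared to 4.90.

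Since 10 of the 13 luminal markers were higher in tumors, each receptor was compared with epithelial markers of the same sample. The mean log2 CPM of the 13 luminal markers was 6.85 ± 0.61 in benign tissue (5.82 to 7.56) and 7.66 ± 0.44 in tumors (7.08 to 8.11, SD, n = 6 per group). Krt19, with a log2 fold change of -4.74, was kept among these markers. It makes the rise of this mean smaller and the receptor differences from it larger. Relative to this mean, Erbb2 was higher in tumors by 5.94 (SE 0.51), Erbb4 by 3.14 (SE 0.37) and Erbb3 by 1.62 (SE 0.21) on the log2 scale, with no overlap between the groups (exact permutation p = 0.00216, adjusted over the 4 receptors 0.00289). Egfr differed by 0.18 (SE 0.31), less than the spread between samples, and its groups overlapped (exact permutation p = 0.584, n = 6 per group). This rested in part on benign sample 6, which had the lowest luminal mean, since without it the difference for Egfr was 0.43 (exact permutation, adjusted p = 0.0693). Without benign samples 3, 4 and 6, those high in muscle markers, it was 0.59 (exact permutation, adjusted p = 0.0595).

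The choice of epithelial reference mattered for Erbb3 and Egfr. Epcam, an adhesion molecule of epithelial cells, rose from 255 ± 95.9 to 1206 ± 152 CPM (SD, n = 6 per group), about as much as Erbb3. Relative to Epcam, Erbb3 differed by 0.11 (SE 0.20, exact permutation p = 0.578). Egfr was lower by 1.33 on the log2 scale (a difference of -1.33, SE 0.28), with 6 of 6 tumors below every benign sample (exact permutation, adjusted p = 0.00289). Epcam itself had a log2 fold change of 2.24, above the 1.03 of Egfr. Any gene that rose less than Epcam is lower by this reference, and the median over all genes tested was -0.06. How many genes were lower relative to Epcam was not counted. Erbb2 (4.44, SE 0.47) and Erbb4 (1.63, SE 0.29) were higher relative to Epcam in 6 of 6 tumors (exact permutation, adjusted p = 0.00289). Relative to the mean of the keratins Krt8 and Krt18, Erbb2 was higher by 5.50, Erbb4 by 2.70 and Erbb3 by 1.18 (exact permutation, adjusted p = 0.00289 each), and Egfr differed by -0.26 (exact permutation p = 0.541). Krt19 moved the other way from the luminal list, from 356 ± 149 to 13.3 ± 10.5 CPM. Erbb2 and Erbb4 were thus higher by each of the 3 references, and Erbb3 by 2 of them.

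**Figure D3:**
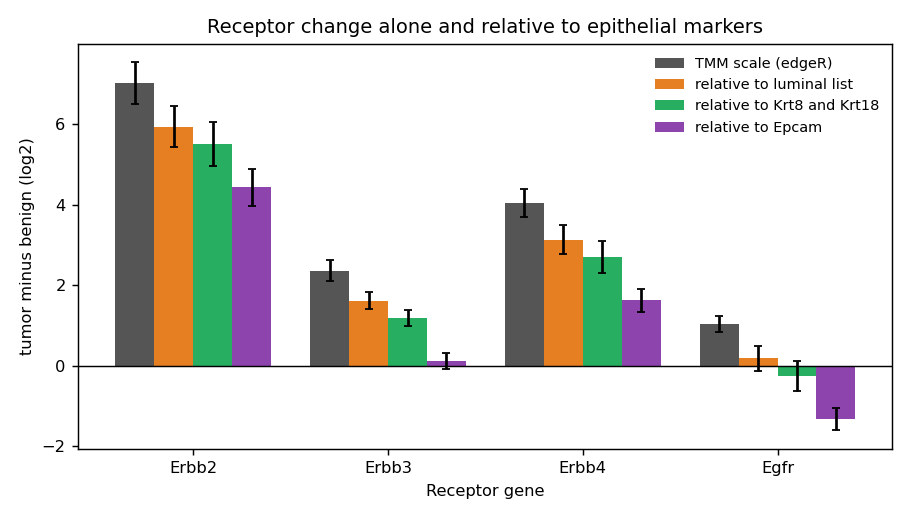
Tumor minus benign difference of each receptor on the log2 scale, with SE, by the edgeR fit and relative to the 13 luminal markers, to Krt8 and Krt18, and to Epcam of the same sample (6 samples per group). Erbb2 and Erbb4 stay above 0 by each reference, while Erbb3 is at 0.11 relative to Epcam and Egfr falls from 1.03 to -1.33.

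The relation of the receptors to each other was examined across the 6 tumors. No relation of another receptor with Erbb2 passed the test. Pearson's r of log2 CPM with Erbb2 was -0.03 for Erbb3 (Spearman's rho -0.09), -0.42 for Erbb4 (rho -0.37) and -0.01 for Egfr (rho -0.14), with exact permutation p = 0.958, 0.407 and 0.981 (n = 6) and p = 0.919, 0.497 and 0.803 for rho. Without tumors 3 and 4, the farthest in Erbb2, r was -0.66, 0.74 and -0.61, so none of these kept its size. Removing them also narrows the range of Erbb2, so these values do not show what each relation rests on. Tumor 3 lay 1.46 above the mean log2 level of Erbb2 and tumor 4 lay 1.61 below it (-1.61), yet their Erbb3 levels differed from the tumor mean by only 0.15 and -0.05. Their Egfr levels lay 0.33 and 0.03 above the mean.

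The relation of largest size between receptors was that of Erbb3 with Erbb4, with r = -0.74 (exact permutation p = 0.0847, adjusted p = 0.434, n = 6) and rho = -0.77 (exact permutation p = 0.103, adjusted p = 0.635). It did not pass the adjustment over 14 relations. Without tumors 1 and 6, those farthest from the median Erbb3, r was -0.29. Removing the farthest tumors also narrows the range of Erbb3, which can by itself shrink r. Leaving out 1 tumor at a time gave r between -0.92 and -0.51. Tumor 1 had the lowest Erbb3 (-0.42 from the mean) and the highest Erbb4 (0.69). Erbb3 with Egfr gave r = 0.20 (rho 0.09) and Erbb4 with Egfr r = -0.29 (rho -0.14), with exact permutation p = 0.694 and 0.617 for r and 0.919 and 0.803 for rho (n = 6). Without the pair of tumors farthest in the receptor named before the other, these were -0.10 and -0.15.

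With the luminal mean of the same tumors, r was 0.77 for Erbb3, -0.77 for Erbb4, 0.64 for Egfr and -0.14 for Erbb2 (exact permutation p = 0.0931, 0.0667, 0.176 and 0.793, n = 6), and rho was 0.60, -0.71, 0.71 and -0.03 (exact permutation p = 0.242, 0.136, 0.136 and 1). Without the pair of tumors farthest in each receptor, r was -0.21, -0.36, 0.69 and -0.92. With total counts, r was 0.23 for Erbb2, 0.26 for Erbb3, -0.67 for Erbb4 and -0.15 for Egfr (exact permutation p = 0.676, 0.608, 0.133 and 0.774, n = 6). The rho values with total counts were 0.14, 0.14, -0.54 and -0.31, and r without the farthest pair was -0.35, -0.08, 0.55 and -0.10. None of the 14 relations passed, with a lowest adjusted p of 0.434 by exact permutation of Pearson's r, and 6 samples can show only very close relations.

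**Figure D4:**
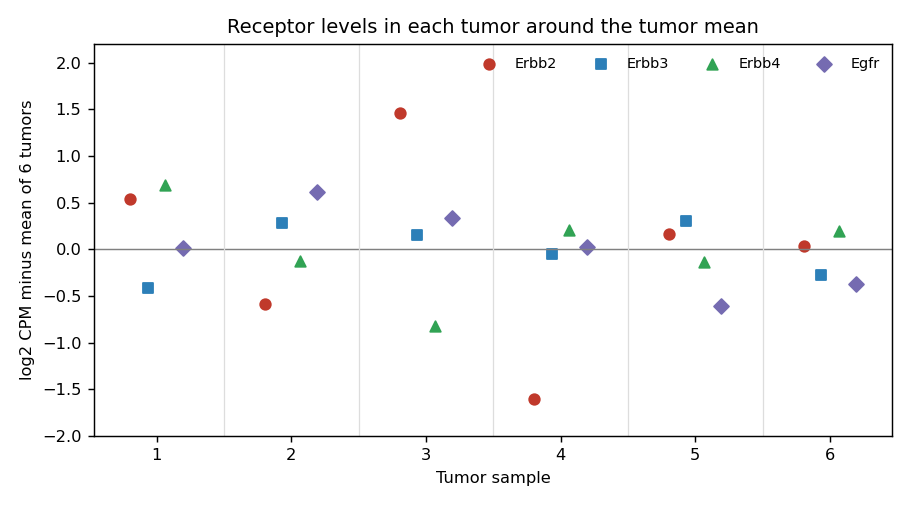
Deviation of log2 CPM from the mean of the 6 tumors for each receptor, with tumor samples 1 to 6 on the horizontal axis. Erbb2 spreads from -1.61 in tumor 4 to 1.46 in tumor 3, while Erbb3 stays between -0.42 and 0.31.

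The genes most like each receptor were listed as a description, by Pearson's r of log2 CPM. Over the 12 samples and 10812 genes, which shared the difference between groups, these were Flvcr2 (0.988), Il20rb (0.984) and Zfp469 (0.983) for Erbb2 and Ddr1 (0.985), Tle6 (0.984) and Samd12 (0.980) for Erbb3. They were Folr1 (0.990), Slc39a9 (0.989) and Cdc42bpg (0.989) for Erbb4 and Tmed10 (0.951), Mocos (0.946) and Plod2 (0.945) for Egfr. Within the 6 tumors and 9956 genes, where the difference between groups plays no part, the genes were others. They were Hras (0.973), Smad3 (0.964) and Usp2 (0.958) for Erbb2, Prkab2 (0.995), Heg1 (0.995) and Eppk1 (0.993) for Erbb3, Fcsk (0.992), Ndfip2 (0.984) and Slc35a3 (0.977) for Erbb4, and Wdr26 (0.997), Notch2 (0.996) and Canx (0.991) for Egfr. These values carry no test, and with so few samples and so many genes high values of r are common.

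The ligands of the receptors split in direction. The table listed 7 EGFR ligands, and 5 of them were tested, of which 3 were higher, 1 was lower and 1 did not pass. Tgfa, which encodes TGF-alpha, ranged from 5.01 to 7.12 CPM in benign tissue and from 19.6 to 68.4 CPM in tumors, a log2 fold change of 2.73 (SE 0.30, edgeR adjusted p = 6.79e-06). Areg, which encodes amphiregulin, a ligand of ductal growth, fell from 47.0 ± 29.3 to 2.11 ± 1.62 CPM (log2 fold change -4.44, edgeR adjusted p = 5.57e-05), with every tumor below every benign sample, a pattern shared by 21.2% of all genes. Egf (2.28, edgeR adjusted p = 0.028) and Hbegf (1.34, edgeR adjusted p = 0.0259) were called higher but their groups overlapped. Egf had 12.5, 15.1 and 32.8 CPM in benign samples 3, 4 and 6, those high in muscle markers. It had 2.78, 2.27 and 1.75 CPM in benign samples 1, 2 and 5, and 9.90 CPM in the lowest tumor. The part of muscle RNA in these Egf values was not tested. Btc differed by 0.39 (edgeR adjusted p = 0.123). Btc was called higher by DESeq2, by total-count scaling, with other filters, and without tumor 3, 4 or 5 or benign sample 5. Ereg and Epgn were too low to be tested. The median log2 fold change of the 5 ligands was 1.34, beside -0.06 over all genes tested, of which 28.2% were higher and 34.8% lower.

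Among the neuregulins, Nrg2 rose and Nrg4 fell. Nrg2 ranged from 1.25 to 5.94 CPM in benign tissue and from 31.3 to 50.2 CPM in tumors, a log2 fold change of 3.97 (SE 0.34, edgeR adjusted p = 7.44e-07). Nrg4, known as a product of adipose tissue, fell from 53.2 ± 21.4 to 0.357 ± 0.200 CPM (edgeR adjusted p = 2.82e-08), and had at most 5 counts in any tumor. Adipocyte markers fell in the same samples, and their part in the fall of Nrg4 was not tested. Nrg1 was too low to be tested, and Nrg3 was not analysed here.

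Of 11 adaptors tested, 3 were higher, 4 were lower and 4 did not pass, with a median log2 fold change of -0.09. Over all genes tested, 28.2% were higher and 34.8% lower, which the adaptor counts resemble. The same shares stand beside the counts of the lists that follow. Grb7, an adaptor that binds phosphorylated ERBB receptors, rose from 20.2 ± 8.76 to 71.6 ± 26.1 CPM (log2 fold change 1.82, SE 0.31, edgeR adjusted p = 0.000279), and Shc2 fell from 11.8 ± 1.82 to 1.12 ± 0.28 CPM (log2 fold change -3.38, edgeR adjusted p = 6.30e-08). Of 18 genes listed for restraint or turnover of the receptors, not all of which restrain them, 10 were higher, 4 were lower and 4 did not pass, with a median of 0.40. Ptprj, a receptor phosphatase, had the highest log2 fold change of this list, 1.93 (SE 0.16, edgeR adjusted p = 5.65e-07), and Sh3kbp1, an adaptor of CBL-mediated endocytosis, the lowest, -1.21 (edgeR adjusted p = 0.0193), with overlapping groups. Errfi1, an inhibitor of ERBB kinases made in response to their activity, rose from 90.4 ± 24.8 to 326 ± 172 CPM (log2 fold change 1.85, SE 0.33, edgeR adjusted p = 0.00041), and Lrig1, which promotes receptor degradation, from 68.3 ± 13.1 to 137 ± 15.4 CPM (log2 fold change 1.01, SE 0.13, edgeR adjusted p = 3.24e-05). Every tumor lay above every benign sample for Ptprj, Errfi1 and Lrig1, a pattern shared by 14.7% of all genes tested.

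Of 9 partners, chaperones and sheddases tested, 3 were higher, 1 was lower and 5 did not pass, with a median log2 fold change of 0.14. Erbin, a scaffold that binds ERBB2, rose from 91.0 ± 18.8 to 295 ± 27.3 CPM (log2 fold change 1.70, SE 0.14, edgeR adjusted p = 4.72e-07). Muc4, a membrane mucin that associates with ERBB2, fell from 17.8 ± 11.2 to 0.096 ± 0.18 CPM (edgeR adjusted p = 9.77e-06) and had at most 4 counts in any tumor. Of 8 transcription factors known to act on ERBB genes, 5 were higher, 1 was lower and 2 did not pass, with a median of 0.73. Tfap2c, the AP-2 gamma factor, rose from 60.1 ± 32.5 to 390 ± 59.9 CPM (log2 fold change 2.70, SE 0.36, edgeR adjusted p = 3.59e-05), and Foxa1, a factor of hormone-sensing luminal cells, fell from 57.2 ± 17.8 to 0.849 ± 0.303 CPM (log2 fold change -6.03, edgeR adjusted p = 5.89e-09). The AP-2 letters searched (GCCNNNGGC) were not in the Erbb2, Egfr or Erbb4 windows printed above. Other AP-2 sites and bases outside the windows were not searched, and binding of these factors was not tested.

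The genes next to Erbb2 on chromosome 11 were examined because Erbb2 and its neighbors are often amplified together in human breast cancer. Of 9 neighbors tested, 8 were higher and 1 did not pass, where 28.2% of all genes tested were higher. Their median log2 fold change was 0.71, beside 7.03 for Erbb2 itself. Ppp1r1b had the highest log2 fold change, 1.94 (SE 0.59, edgeR adjusted p = 0.0129, groups overlapping), and Psmd3 the lowest, -0.10 (edgeR adjusted p = 0.491). The genes nearest to Erbb2, named after their values were seen, were Mien1 (1.09, SE 0.15, edgeR adjusted p = 4.91e-05), whose annotated end overlaps that of Erbb2, Grb7, 8.68 kb away, and Pgap3 (1.28, SE 0.19, edgeR adjusted p = 7.21e-05), 12 kb away. The overlap runs only from chr11:98437708 to chr11:98437716, and sharing of reads there was not tested. DNA copy number was not measured in these samples.

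**Figure D5:**
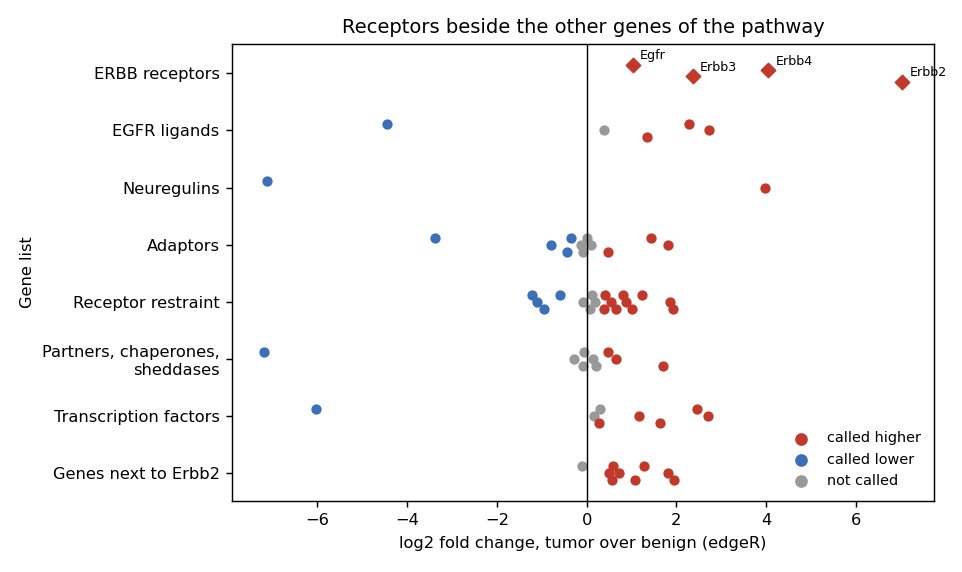
Log2 fold change of tumors over benign tissue (edgeR) for the 4 receptors and the tested genes of 7 lists, with 1 point per gene colored by whether it was called higher, lower or not called at an adjusted p of 0.1. The receptors lie between 1.03 and 7.03, while most lists hold genes on both sides of 0.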

How the data were processed

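RNA was extracted from 6 tumors and 6 benign samples, enriched for poly A and sequenced as paired reads on a directional library. The authors used Salmon for quantification. The values deposited are estimated counts of each gene, rounded to whole numbers and without library scaling. The submitters' processing notes name Trim Galore, Salmon, DESeq2 and the mm10 build. No version, annotation or strand setting is given in the sources used here. Each sample was grouped by its title as tumor or benign, and 0 columns were left without a sample. Tumors and benign samples came from different mice. Whether each sample within a group came from its own mouse is not given in the sources used here. The replicates of a group differed by more than sampling noise (smallest chi-square per degree of freedom 12.5 in benign tissue and 16.4 in tumors).

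Genes were kept by edgeR's filterByExpr (at least 10 counts in enough samples and 15 in total) and TMM scaled. Tumors and benign samples were compared in R 4.3.3 with edgeR 4.0.16 (glmQLFit and glmQLFTest, two-sided), and p-values were adjusted over all 13191 genes by Benjamini-Hochberg. A gene was called at an adjusted p under 0.1, the threshold of the study. Log2 CPM used 2 added counts. Ratios and epithelial references were compared by exact two-sided permutation over samples (Python 3.11.15, numpy 2.4.6). Scripts were tested on simulated data. Alternatives were DESeq2 1.42.0, other scalings, other filters, a threshold of 0.05, 0.5 added counts, other epithelial references, the replicate number as a block, and leaving out each sample or the benign samples 3, 4 and 6.

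The receptors, the gene lists and the markers were chosen with earlier results of these data known. Named genes are the receptors, the highest and lowest log2 fold change of each list, its members of direct receptor role, and the 3 genes most like each receptor among those with a mean of at least 10 CPM, plus the neighbors named by position. Gene positions and lengths came from GENCODE M21 (GRCm38), not necessarily the annotation behind the deposited values. Promoter sequences were matched by symbol to RefSeq for 3 of the 4 receptors.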

Additional observations from a re-analysis of the deposited data

Results flagged for a closer look

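Of 78 groups of 6 values examined, 9 had 1 sample that stood apart from the other 5, where chance gives about 1 in 20 groups. Egfr was lowest in benign sample 1, at 46.7 CPM, the sample with the T cell marker level of 403 CPM, and Sh3kbp1 was highest there, at 141 CPM. In benign sample 6, one of the samples high in muscle markers and the one with the lowest luminal mean, the log2 ratio of Erbb4 over Egfr was -6.34 and log2 Erbb2 relative to the luminal markers was -0.30. Nrg2 and Ppp1r1b were highest in benign sample 3, at 5.94 and 5.28 CPM. Among the tumors, Ppp1r1b reached 22.6 CPM in tumor 5, Krt19 reached 33.3 CPM in tumor 3, and Muc4 was 0.439 CPM in tumor 6. The part of muscle or T cell RNA in these values was not tested.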

How the results depend on the processing

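The calls of Erbb2, Erbb3, Erbb4 and Egfr held in each alternative that gave a value, which for Erbb4 excludes the filter that asked for 10 counts in each of the samples. Leaving out 1 sample at a time gave log2 fold changes of 6.68 to 7.29 for Erbb2, 2.27 to 2.61 for Erbb3, 3.88 to 4.30 for Erbb4 and 0.95 to 1.20 for Egfr. The receptor ratios kept their direction and their side of the threshold in all 96 alternative values. Same-numbered tumors and benign samples came from different mice and did not deviate together (correlations -0.124 to 0.103). With the replicate number as a block the log2 fold changes were 6.77, 2.44, 4.03 and 1.0. Pathway genes here are the lists of EGFR ligands, neuregulins, adaptors, restraint, partners with chaperones and sheddases, and transcription factors (5, 2, 11, 18, 9 and 8 tested). With the block, 25 of them were higher and 12 lower, as without it. Over all 13191 genes tested, 3473 were higher and 4237 lower with the block, and 28.2% and 34.8% without it. Relative to epithelial references, Egfr was 0.59 (exact permutation, adjusted p = 0.0595) without benign samples 3, 4 and 6, ranged from 0.054 to 0.43 when 1 sample was left out, and was -1.33 relative to Epcam, the reverse of its sign by the luminal list. Erbb3 was 0.11 relative to Epcam and did not pass. The lower pathway genes numbered 12, and 7 under the filter of 10 counts in each sample, which tests fewer genes. Under that filter 3247 of 11227 genes tested were lower. The lower neighbors of Erbb2 numbered 0 by edgeR, 0 by DESeq2 and 0 of 9 by edgeR's p before adjustment read at 0.05. Where genes needed only 1 count, which tests more genes, 3 of 15 neighbors were lower and 9 higher. With that filter 5483 of 16411 genes tested were lower and 4571 higher. Among the listed genes, alternatives changed the call of Btc, Cdc37, Ptpn11, Shc4, Socs4 and Wwtr1 (19 values gained and 12 lost a call), and no called direction turned. Benign counts of 4 to 27 limit the precision of Erbb4.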
